A study of Mus musculus with 9 samples.

Results

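The triggering receptors expressed on myeloid cells (TREM) and the adaptors and kinase they signal through were followed in stromal vascular fractions (SVFs) of injured mouse fat. The members were Trem1, Trem2, Trem3, Tyrobp (the adaptor DAP12), Hcst (the adaptor DAP10) and Syk, 6 of the 18193 genes named on the array. A member took every probe set whose annotation gives that single gene symbol, which made 11 probe sets, and 9 of them passed a filter on detection. SVF is the mixed cell population that enzymatic digestion of fat releases once the adipocytes are removed. It was taken from inguinal subcutaneous fat of wild type Balb/c mice aged 10 weeks, with 3 mice at each of days 0, 1 and 3 after surgical injury of the fat and 1 array per mouse. All 9 mice shared genotype, strain and age. The labels name injury alone. The study describes the arrays as comparing SVFs primed by injury (mincing of the fat) together with ischemia (ligation of the artery that feeds it), on days 1 and 3, with nonprimed SVFs on day 0. Whether the day 0 mice had a sham operation is not given in the sources used here.

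TREM receptors have short cytoplasmic tails and signal through a partner. A charged residue in the membrane pairs the receptor with DAP12, whose tail carries an immunoreceptor tyrosine-based activation motif (ITAM). Once phosphorylated, the ITAM recruits the tyrosine kinase SYK. DAP10 carries a different motif that recruits phosphoinositide 3-kinase, and it serves NKG2D on lymphocytes as well as myeloid receptors. TREM1 amplifies inflammatory responses of neutrophils and monocytes, whereas TREM2 binds lipids and lipoproteins and is known from phagocytic, lipid-handling macrophages, including those of fat. Trem3 is a further DAP12-coupled receptor of mouse myeloid cells. In the mouse annotation used here Trem1, Trem2 and Trem3 lie on chromosome 17, Tyrobp and Hcst are neighbours on chromosome 7 with no listed gene between them, and Syk lies on chromosome 13.

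The windows upstream of 3 members are shown because these genes followed 3 different courses: Trem1 was high on day 1, Trem2 on day 3, and Hcst was lower on both days. Each line gives the 250 bases before the annotated start in RefSeq (GRCm38.p6), read 5′ to 3′ on the strand of the gene. Capitals mark AGGAAG on either strand (CTTCCT on the other), the core of sites for PU.1 and other ETS factors of myeloid cells, and TGANTCA, the letters of AP-1 sites.
Trem1 is on the plus strand at chr17:48232489-48232738, Trem2 on the plus strand at chr17:48346151-48346400, and Hcst on the minus strand at chr7:30419855-30420104.
Trem1: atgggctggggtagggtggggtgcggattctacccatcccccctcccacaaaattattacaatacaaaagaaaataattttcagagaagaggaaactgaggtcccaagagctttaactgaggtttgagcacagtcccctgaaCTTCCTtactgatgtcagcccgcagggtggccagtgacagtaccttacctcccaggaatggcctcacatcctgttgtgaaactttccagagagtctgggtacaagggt
Trem2: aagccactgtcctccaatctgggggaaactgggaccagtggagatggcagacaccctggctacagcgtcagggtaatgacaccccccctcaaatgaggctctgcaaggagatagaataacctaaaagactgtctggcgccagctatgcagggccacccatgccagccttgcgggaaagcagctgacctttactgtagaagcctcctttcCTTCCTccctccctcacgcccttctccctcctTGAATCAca
Hcst: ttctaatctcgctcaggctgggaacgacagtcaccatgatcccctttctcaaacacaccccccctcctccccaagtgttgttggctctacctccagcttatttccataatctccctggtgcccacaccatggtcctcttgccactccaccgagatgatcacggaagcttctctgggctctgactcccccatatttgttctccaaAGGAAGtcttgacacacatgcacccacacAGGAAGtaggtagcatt
The Trem1 window held 1 AGGAAG match, 108 bases before the start. The Trem2 window held 1, at 41 bases, together with 1 TGANTCA match 9 bases before the start. The Hcst window held 2 AGGAAG matches, at 46 and 17 bases. Neither of the 2 windows listed for Syk held a match. Of 32851 mouse windows of this length, 29.5% held AGGAAG, 6.25% held it at least 2 times and 6.75% held TGANTCA. The matches are descriptions of the letters and were not tested as binding sites.

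The arrays were of similar quality. Each array detected 24106 to 26299 of its 45101 probe sets as present, and the ratio of 3′ to 5′ actin signal lay between 1.15 and 1.32. Signals are linear MAS5 values, scaled by the authors so that the trimmed mean of each array is 500. Changes are differences of log2 signal ± SE from limma, fitted over 11796 genes with 1 probe set each, with 0.05 as the limit of the adjusted p for a call. Days 1 and 3 were both set against the same 3 day 0 mice, so those comparisons share their controls.

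On day 1 against day 0, 3 of the 6 members rose (Trem1, Trem3 and Tyrobp) and 1 fell (Hcst), where 28.6% of all genes were called (10.7% higher and 17.9% lower). On day 3 against day 0, 4 members rose, Trem2 having joined, and Hcst fell, where 26.1% of all genes were called (13.6% higher and 12.5% lower). On day 3 against day 1, Trem2 rose while Trem1 and Trem3 fell, where 14.2% of all genes were called (9.66% higher and 4.54% lower). The median change of the members was 0.85, 1.35 and -0.15 on the log2 scale in the 3 comparisons, beside -0.13, -0.03 and 0.09 over all genes. The mice of the days compared did not overlap for 4, 5 and 3 of the 6 members, beside 40.0%, 47.2% and 35.0% of all genes. Trem2 passed the detection filter only through day 3, and Trem3 only through days 1 and 3. In RNA of whole SVF, fewer cells of a type and less RNA per cell cannot be told apart.

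**Figure D1:**
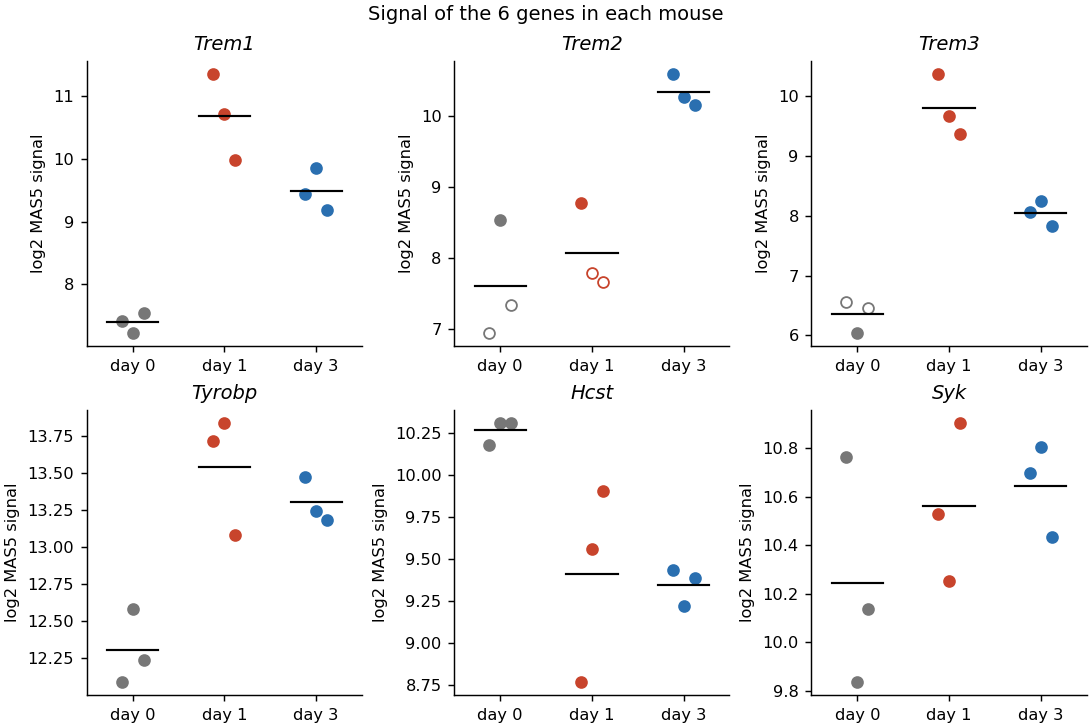
Signal of the 6 genes (log2 MAS5 signal, vertical axis, its range set for each gene) by day after injury (horizontal axis), with 1 point per mouse and a bar at the mean of 3 mice. Filled points were called present and open points were not. Trem1 and Trem3 were highest on day 1, Trem2 on day 3, and Hcst was highest on day 0.

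Trem1 was the receptor with an early course. Its representative probe set, 1447284_at, gave 171, 150 and 187 on day 0, 2608, 1681 and 1015 on day 1, and 691, 929 and 580 on day 3. All 9 arrays called it present, and no 2 days overlapped. On day 1 Trem1 was 9.76-fold higher than on day 0 (log2 change 3.29 ± 0.29, limma adjusted p = 1.49e-05), and on day 3 it was 4.27-fold higher (2.09 ± 0.29, adjusted p = 0.000358). On day 3 Trem1 was lower than on day 1, by a log2 change of -1.19 ± 0.29 (adjusted p = 0.0185). This later call was lost without day 1 replicate 2 (adjusted p = 0.0594), day 3 replicate 1 (0.069) or day 3 replicate 3 (0.0677).

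A second Trem1 probe set, 1460282_at, showed the same order of days over a wider range. It gave 5.32, 8.14 and 22.8 on day 0, none of them called present, 3345, 1908 and 1843 on day 1, and 261, 372 and 239 on day 3. Because the day 0 signals were not above background, folds against them are lower bounds, taken against the higher of each array's lowest present signal and the probe set's own value. They were at least 185-fold on day 1 and at least 23.2-fold on day 3 (limma over 24920 probe sets, adjusted p = 8.28e-07 and 3.69e-05). On day 3 against day 1 the change was -3.00 on the log2 scale (adjusted p = 0.00215). Of all probe sets tested, 22.3%, 19.5% and 9.34% were called in the 3 comparisons. The sizes given by the 2 probe sets differed, while the direction was shared in all 3 comparisons.

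Trem3 followed the order of days seen for Trem1. It gave 93.8, 65.8 and 88.3 on day 0, where 1 of 3 arrays called it present, 1326, 813 and 659 on day 1, and 267, 305 and 228 on day 3. No 2 days overlapped. Trem3 was 10.9-fold higher on day 1 than on day 0 (log2 change 3.45 ± 0.25, limma adjusted p = 2.95e-06) and 3.24-fold higher on day 3 (1.70 ± 0.25, adjusted p = 0.000533). It was lower on day 3 than on day 1 by -1.75 ± 0.25 on the log2 scale (adjusted p = 0.00101). Both sizes against day 0 rest on a group in which 2 of 3 arrays did not call the probe set present. With 64 added to every signal they were 2.715 and 1.171 on the log2 scale. Without the detection filter the limma adjusted p was 8.26e-06 and 0.0012.

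Trem2 had a late course. Its probe set 1421792_s_at gave 123, 369 and 162 on day 0, 436, 220 and 202 on day 1, and 1535, 1228 and 1137 on day 3. Day 0 and day 1 overlapped, with 1 of 3 arrays called present on each, and every day 3 mouse lay above all others. On day 3 Trem2 was 6.64-fold higher than on day 0 (log2 change 2.73 ± 0.37, limma adjusted p = 0.000369) and 4.80-fold higher than on day 1 (2.26 ± 0.37, adjusted p = 0.00275). Both sizes rest on groups in which 2 of 3 arrays did not call the probe set present. They were 2.36 and 2.01 on the log2 scale with 64 added to every signal, and without the detection filter the adjusted p was 0.000714 and 0.00521. On day 1 the change from day 0 was 0.47 ± 0.37 with a 95% interval from -0.35 to 1.29 (adjusted p = 0.359). Without day 0 replicate 2, the day 0 array that called it present, that change was 0.93 (adjusted p = 0.0429). The suffix of this probe set marks probes that match more than 1 transcript. The other Trem2 probe set, 1421226_at, was not called present on any array, with signals from 3.88 to 67.7, and was not tested.

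The log2 ratio of Trem1 to Trem2 within each array set the early receptor against the late one. It was 0.48, -1.29 and 0.21 on day 0, 2.58, 2.93 and 2.33 on day 1, and -1.15, -0.40 and -0.97 on day 3. Day 1 mice lay above all others, and days 0 and 3 overlapped. The difference of means was 2.82 for day 1 against day 0, -0.64 for day 3 against day 0 and -3.46 for day 3 against day 1. These are given as a description with no test, since both courses were known when the pair was chosen and Trem2 was not called present on 2 of 3 arrays of days 0 and 1. With the mean of each gene's probe sets the day 3 against day 0 difference was 0.73, opposite in sign. A ratio of 2 probe sets is compared between days only and is not a ratio of transcript levels.

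**Figure D2:**
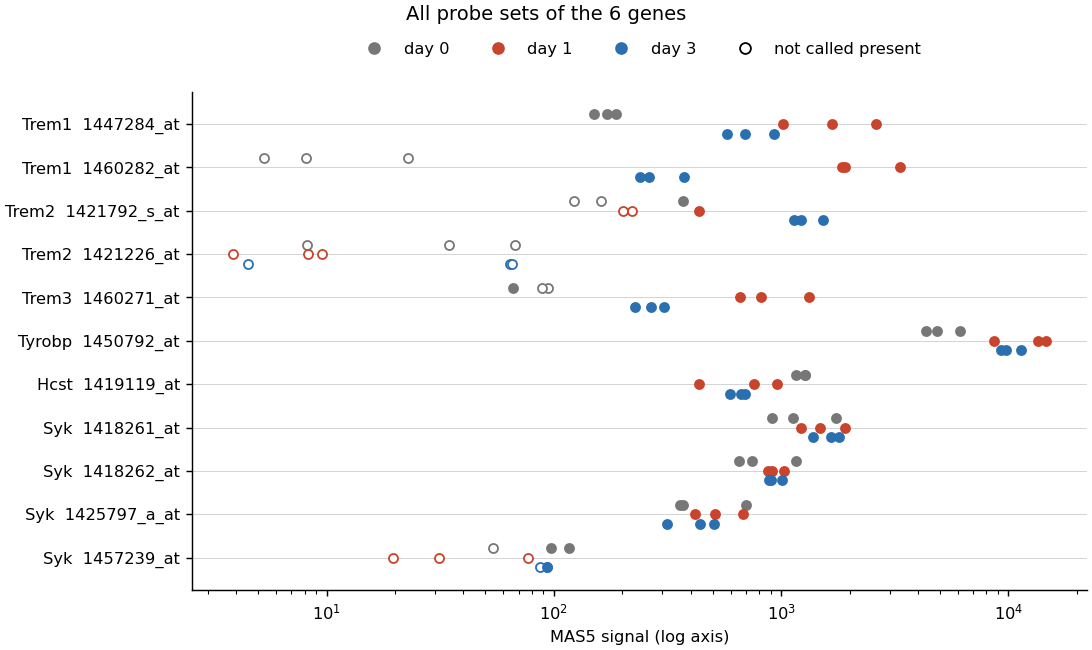
Signals of all 11 probe sets of the 6 genes (horizontal log axis, MAS5 signal), with 1 point per mouse coloured by day and open points where the array did not call the probe set present. The second Trem1 probe set was open on day 0 at 5.32 to 22.8, and the second Trem2 probe set was open on every array.

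Tyrobp, the DAP12 adaptor shared by the 3 receptors, rose on both days. It gave 4357, 6138 and 4835 on day 0, 13418, 14613 and 8655 on day 1, and 11384, 9702 and 9299 on day 3. Both later days lay above day 0, and days 1 and 3 overlapped. Tyrobp was 2.36-fold higher on day 1 (log2 change 1.24 ± 0.19, limma adjusted p = 0.000817) and 2.00-fold higher on day 3 (1.00 ± 0.19, adjusted p = 0.00281). Between days 3 and 1 the change was -0.24 ± 0.19, with a 95% interval from -0.65 to 0.17 (adjusted p = 0.408). It was -0.47 (adjusted p = 0.0362) without day 1 replicate 3, the lowest of the day 1 mice.

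Hcst, the DAP10 adaptor, was the member that fell. It gave 1161, 1269 and 1270 on day 0, 436, 756 and 958 on day 1, and 693, 596 and 669 on day 3. Day 0 lay above both later days, which overlapped each other. The log2 change was -0.86 ± 0.23 on day 1 (limma adjusted p = 0.018) and -0.92 ± 0.23 on day 3 (adjusted p = 0.0127), and -0.06 between days 3 and 1 (adjusted p = 0.876, 95% interval from -0.56 to 0.44). The day 1 call was lost without day 0 replicate 3 (adjusted p = 0.0602), and the day 3 call without day 3 replicate 2 (0.0519). Without day 1 replicate 1 the day 1 change was -0.53 (adjusted p = 0.0313).

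Syk, the kinase that binds the phosphorylated ITAM, was not called in any comparison. Its brightest probe set, 1418261_at, gave 1738, 914 and 1125 on day 0, 1478, 1219 and 1917 on day 1, and 1664, 1791 and 1382 on day 3. The 3 days overlapped. The log2 change was 0.32 ± 0.23 on day 1 (95% interval -0.18 to 0.82, limma adjusted p = 0.308) and 0.40 ± 0.23 on day 3 (95% interval -0.10 to 0.90, adjusted p = 0.219). Intervals of this width include increases of up to 1.76-fold and 1.87-fold. Without day 0 replicate 1, the highest of the day 0 mice, the day 3 change was 0.66 (adjusted p = 0.0389). The probe sets 1418262_at and 1425797_a_at were present on all 9 arrays and were not called either, and day 0 replicate 1 was again the highest day 0 mouse in both. The remaining set, 1457239_at, did not pass the filter.

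**Figure D3:**
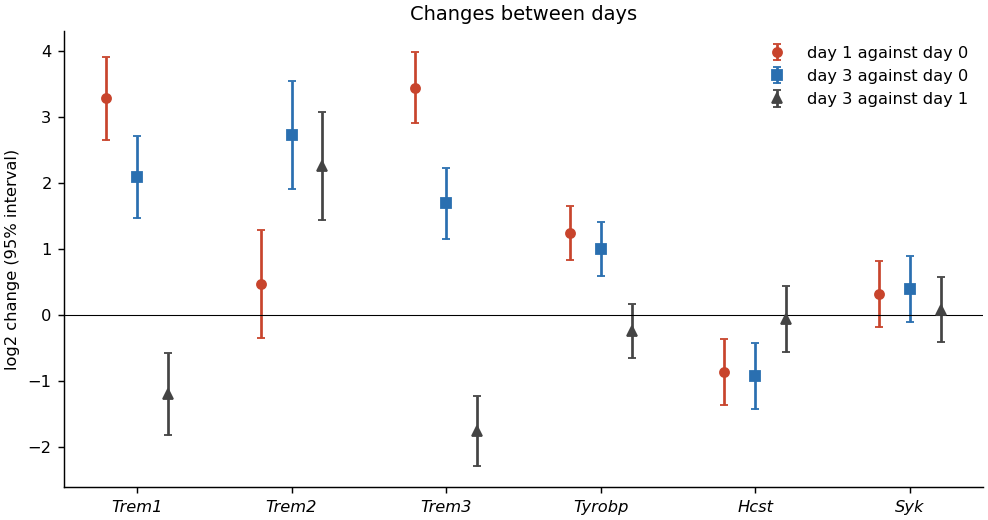
Log2 change of each gene (vertical axis) with its 95% interval from limma, for day 1 against day 0 (circles), day 3 against day 0 (squares) and day 3 against day 1 (triangles). Trem1 and Trem3 had positive changes against day 0 and negative ones on day 3 against day 1, Trem2 changed on day 3, and the Syk intervals included 0 in all 3 comparisons.

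The genes whose signal followed each member most closely over the 9 arrays were listed as a description. Correlations over 9 arrays are set largely by the difference between days. For Trem1 they were Mefv (r = 0.9895), which encodes pyrin, Vcan (0.986), Il23a (0.986), Smox (0.9857) and Cyp1b1 (0.9849). For Trem3 they were Creld2 (0.9909), the inhibitory receptor Cd300lf (0.9905), the cystine transporter Slc7a11 (0.9875), Smox (0.9843) and Mxd1 (0.9836). Smox, a polyamine oxidase, stood in both lists. For Trem2 they were Cenpi (0.9862), Mmp12 (0.9843), the macrophage elastase, Anapc4 (0.9756), Anxa5 (0.9752) and Mbtps2 (0.9734). Mmp12 changed by 2.46 on day 3 and 0.33 on day 1 on the log2 scale against day 0.

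For Tyrobp the closest genes were Clec4a2 (r = 0.9949), Wfdc17 (0.9917), Nipsnap3b (0.9854), the Fc receptor Fcgr3 (0.9842) and Mpp1 (0.9835). For Hcst they were 1700097N02Rik (0.9938), Cd96 (0.993), Tox (0.9891), Cd8b1 (0.9865) and Parm1 (0.985). Cd96, Tox and Cd8b1 are known from T cells, and Cd96 and Cd8b1 changed by -1.52 and -1.48 on day 1 against day 0. For Syk no gene exceeded r = 0.9179 (Kctd14), followed by Hsf5, Bop1, Notch2 and 1700017B05Rik.

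Marker genes of myeloid cells that can carry these receptors did not all move alike. Neutrophil and monocyte markers mostly rose on day 1, while dendritic cell markers did not. Across all genes, 10.7% were called higher and 17.9% lower on day 1, and 13.6% and 12.5% on day 3 against day 0. The shares on day 3 against day 1 were 9.66% and 4.54%. Of 8 neutrophil markers tested, 7 rose on day 1 and 6 on day 3 against day 0, and 4 fell on day 3 against day 1. Their summed signal was 1970 to 2140 on day 0, 43545 to 75170 on day 1 and 9706 to 21803 on day 3. On day 1 it was 75170, 69956 and 43545 in replicates 1, 2 and 3, the order in which Trem1 gave 2608, 1681 and 1015. On day 3 it was 14831, 21803 and 9706, again in the order of Trem1 (691, 929 and 580), while on day 0 it was 1995, 2140 and 1970 beside Trem1 signals of 171, 150 and 187, where the mouse highest in the markers was the lowest in Trem1. The granule genes Camp, Ltf, Elane and Mpo did not pass the filter. Of 7 monocyte markers, 5 rose and 1 fell on day 1 and 5 rose on day 3, with sums of 36803 to 41823, 55958 to 64786 and 49161 to 51646 on days 0, 1 and 3. Monocyte sums also lay in the order of Trem1, at 64786, 62974 and 55958 on day 1 and 49658, 51646 and 49161 on day 3. On day 0 they were 36988, 36803 and 41823, in the order of Trem1 as well. Sums are weighted towards the brightest markers, and the mean log2 signal did not always give this order. On that measure, relative to day 0, monocyte markers gave 0.02, 0.19 and -0.21 on day 0, the reverse of the Trem1 order. On day 1 neutrophil markers gave 4.28, 3.9 and 3.96, with replicates 2 and 3 in the other order. Neutrophil markers on day 3 and monocyte markers on day 1 kept the order. The order of sums on day 1 was not particular to these 2 lists. Macrophage markers (89989, 80050 and 72864) and platelet markers (33358, 25387 and 19768) gave it as well, as did mast cell and adipocyte markers. The sums of the remaining lists did not. The part of neutrophils and monocytes in the changes of Trem1, Trem3 and Tyrobp was not tested.

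Macrophage markers, 13 of which were tested, gave sums of 65870 to 74116 on day 0, 72864 to 89989 on day 1 and 77129 to 97081 on day 3. On day 1 against day 0, 5 of them rose and 1, Csf1r, fell. On day 3 against day 0, 5 of them rose and 2 fell, the falling ones being Lyve1 and Timd4, which are known from resident macrophages. Dendritic cell markers, 8 tested, gave 27270 to 32296, 14164 to 23982 and 12758 to 18466 on days 0, 1 and 3. Of these, 0 rose and 3 fell on day 1, and 1 rose and 3 fell on day 3 against day 0. T cell markers, 6 tested, gave 20535 to 25284, 6495 to 15781 and 8851 to 11973, and 4 fell on each later day against day 0. On day 1 their sum was 6495, 15781 and 14432 in replicates 1, 2 and 3, beside Hcst signals of 436, 756 and 958, so the mouse lowest in one was lowest in the other. On day 3 the sums were 8851, 9696 and 11973 beside Hcst signals of 693, 596 and 669, and the mouse lowest in the markers was the highest in Hcst. The 9 markers of NK and cytotoxic cells gave 4009 to 4726, 4858 to 5709 and 3282 to 6280, with 3 higher and 1 lower on day 1. B cell markers gave 18374 to 30054, 9778 to 21877 and 5659 to 11821. The part of these cells in the changes of Trem2 and Hcst was not tested. As a check of the label, markers of adipose progenitors summed to 93322 to 121799 over the 9 arrays, and the 3 adipocyte markers tested to 329 to 1110.

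**Figure D4:**
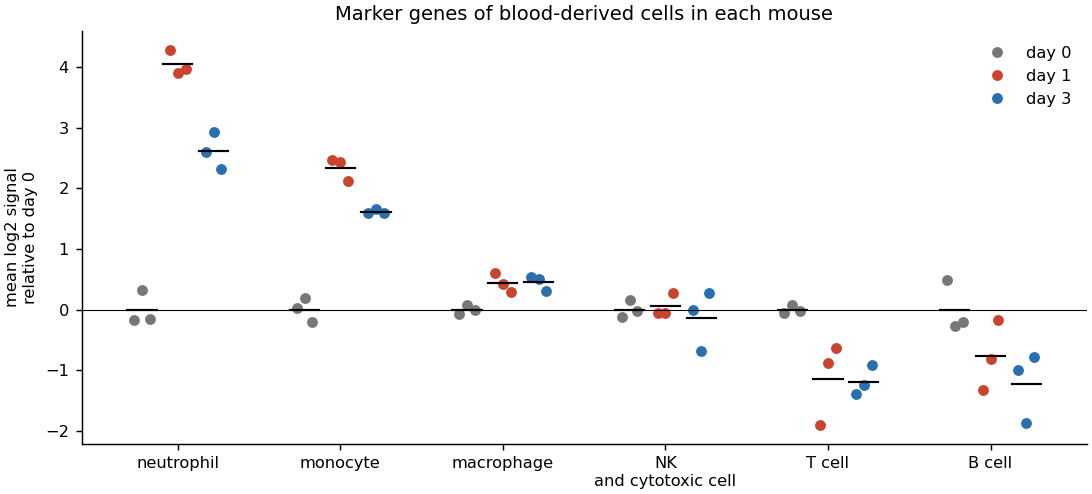
Mean log2 signal of the tested markers of 6 blood-derived cell types in each mouse, relative to the mean of day 0 (vertical axis), with 1 point per mouse coloured by day and a bar at the mean. Neutrophil markers were highest on day 1 (summed signal 43545 to 75170), and T cell markers were lower on days 1 and 3 than on day 0.

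The list of other receptors that pair with DAP12 or DAP10 mostly rose on day 1. Of its 15 genes tested, 11 rose and 2 fell on day 1, and 7 rose and 1 fell on day 3 against day 0. On day 3 against day 1, 1 rose and 6 fell. The counts include Fcer1g, which encodes an ITAM adaptor and not such a receptor, and which rose on days 1 and 3. They also include Csf1r, a receptor with a kinase domain of its own and not such a partner receptor. Csf1r was 1 of the 2 that fell on day 1 and the 1 that rose on day 3 against day 1. Beside these counts, 10.7% of all genes rose and 17.9% fell on day 1, and 13.6% and 12.5% on day 3 against day 0. On day 3 against day 1 the shares were 9.66% and 4.54%. Median log2 changes of the list were 1.58, 0.82 and -0.34, beside -0.13, -0.03 and 0.09 over all genes. Without 1 array at a time, 9 to 11 rose on day 1, and 3 to 6 fell on day 3 against day 1, with 3 without day 3 replicate 1 or 2. Sirpb1a, a DAP12-coupled signal-regulatory protein, changed by 2.89 ± 0.21 on day 1 and 2.97 ± 0.21 on day 3 (limma adjusted p = 4.12e-06 and 4.21e-06). None of the 3 day 0 arrays called Sirpb1a present, so it passed the filter only through days 1 and 3. Both sizes rest on day 0 signals that were not above background. Cd300c2 changed by 2.52 ± 0.18 and 2.85 ± 0.18. Treml4, the neighbour of Trem3, rose by 2.58 ± 0.24 and 1.57 ± 0.24, and Clec5a, a myeloid lectin, by 2.45 ± 0.38 on day 1 (adjusted p = 0.00103). Siglech, known from plasmacytoid dendritic cells, fell on day 3 by 1.12 (adjusted p = 0.00289), and Cd200r3 was not called, at 0.34 on day 1 and -0.54 on day 3.

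Of 7 genes for TREM ligands and shedding proteases, 2 rose and 2 fell on day 1, and 3 rose and 2 fell on day 3 against day 0. Over all genes the shares were 10.7% and 17.9% on day 1, and 13.6% and 12.5% on day 3. On day 1 only 1 of the 7 rose without day 0 replicate 3, day 1 replicate 1 or day 3 replicate 1. On day 3, 1 rose and 1 fell without day 0 replicate 3, and 1 fell without day 0 replicate 2 or day 3 replicate 1 or 2. Lgals3 (galectin-3), a TREM2 ligand, rose by 1.52 ± 0.19 on day 1 and 1.30 ± 0.19 on day 3 (limma adjusted p = 0.000194 and 0.000489). Il34 fell by 1.02 on day 1 (adjusted p = 0.00376). Apoe, which encodes an apolipoprotein that TREM2 binds, fell by 0.50 on day 1 (adjusted p = 0.00613). Clu (clusterin), which TREM2 also binds, fell by 1.78 on day 3 (adjusted p = 0.00686). Pglyrp1, which encodes a TREM1 ligand, was lower on day 3 than on day 1, with a change of -1.03 (adjusted p = 0.0093).

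Kinases and scaffolds below the adaptors moved both ways. Of 25 tested, 6 rose and 8 fell on day 1, and 5 rose and 4 fell on day 3 against day 0. Among all genes, 10.7% rose and 17.9% fell on day 1, and 13.6% and 12.5% on day 3. Medians of the list were 0.13 and 0.11, beside -0.13 and -0.03 over all genes. With the arrays centred on their median, 10 of the 25 rose and 5 fell on day 1. Without 1 array at a time, 4 to 8 rose and 3 to 9 fell on day 1, with 3 falling when day 0 replicate 1 was left out and 4 rising when day 1 replicate 1 was. Against day 0 on day 3, 3 to 8 rose and 1 to 7 fell, with 8 rising without day 0 replicate 1, 3 rising without day 3 replicate 2, 7 falling without day 1 replicate 3, and 1 falling without day 0 replicate 1 or 3 or day 3 replicate 1 or 2. The Src-family kinase Fgr rose by 1.77 ± 0.18 and 1.33 ± 0.18, the adaptor Lat2 by 1.01 ± 0.19 and 0.85 ± 0.19, and Vav3 by 0.71 ± 0.15 and 0.82 ± 0.15 on days 1 and 3. Fgr was called present on 1 of the 3 day 0 arrays. Pik3ap1 rose by 0.96 ± 0.20 on day 1 (limma adjusted p = 0.00545). Plcg1 fell by 1.17 on day 1 (adjusted p = 0.00202). Lat, an adaptor of T cell receptor signaling, changed by -1.08 ± 0.32 on both days (adjusted p = 0.0281 and 0.0286), calls that were lost whichever day 0 array was left out.

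Of 19 genes listed as inhibitors of ITAM signaling, 6 rose and 3 fell on day 1, and 6 rose and 2 fell on day 3 against day 0. Shares over all genes were 10.7% and 17.9% on day 1, and 13.6% and 12.5% on day 3. The 2 listed genes that fell on day 3 were Ubash3a and Ptprc. Ptprc encodes CD45, which also activates Src-family kinases, so it is not an inhibitor only. Without 1 array at a time the lower genes numbered 0 to 5 on day 1 and 0 to 4 on day 3 in limma. None was called lower on day 1 without day 0 replicate 1 or 3 or day 1 replicate 1 or 2, nor on day 3 without day 0 replicate 2 or day 3 replicate 1 or 2. The inhibitory receptors Cd300lf, Pilra and Pirb rose on day 1 by 3.73 ± 0.16, 2.47 ± 0.27 and 1.76 ± 0.12 (limma adjusted p = 4.55e-08, 7.18e-05 and 1.92e-06). Cd300lf was lower on day 3 than on day 1, by -1.67 ± 0.16. Sirpa, the receptor for CD47, rose in all 3 comparisons, by 0.81, 1.59 and 0.79. Cblb, a ubiquitin ligase, was not called, at -0.96 on day 1 and -0.18 on day 3 against day 0, and the sign on day 3 changed with the settings.

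Cytokines and surface genes known to be induced when TREM1 is ligated were all measured, 16 of 16. On day 1, 13 rose, beside 10.7% of all genes. On day 3 against day 0, 7 rose and 1 fell, beside 13.6% and 12.5% of all genes. On day 3 against day 1, 10 fell, beside 4.54% of all genes. Medians of the list were 0.74, 0.26 and -0.75, beside -0.13, -0.03 and 0.09 over all genes. Without 1 array at a time, 10 to 12 rose on day 1, and 6 to 11 fell on day 3 against day 1, the fewest without day 3 replicate 1. Cxcl3, a neutrophil chemokine, changed by 3.97 ± 0.21 on day 1, 2.93 ± 0.21 on day 3 against day 0 and -1.03 ± 0.21 on day 3 against day 1. Il1a rose by 3.68 ± 0.42, Il1b by 2.87 ± 0.18 and Tnf by 2.39 ± 0.16 on day 1 (limma adjusted p = 0.000108, 1.13e-06 and 1.92e-06). Cxcl1, which shares this list, was not called in any comparison, at 0.07 on day 1 and -0.01 on day 3. Icam1 fell by 0.47 on day 3 against day 0 (adjusted p = 0.0105).

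Genes of the lipid-handling macrophages in which Trem2 is known to be expressed rose in part. Of 19 tested, 9 rose and 3 fell on day 1, and 11 rose and 3 fell on day 3 against day 0. The shares of all genes were 10.7% and 17.9% on day 1, and 13.6% and 12.5% on day 3. Medians of the list were 0.34 and 0.56, beside -0.13 and -0.03 over all genes. Without 1 array at a time, 9 to 12 rose on day 3, and the genes called lower in limma numbered 0 without day 3 replicate 2, 1 without day 0 replicate 2 or 3 or day 3 replicate 3, and 2 or 3 otherwise. On day 3 against day 1, 2 rose and 1 fell, and after quantile normalization 8 were called higher. The median of the list in that comparison was 0.09, the same as over all genes. The lysosomal protease Ctsd rose by 0.95 ± 0.11 and 1.17 ± 0.11 on days 1 and 3 (limma adjusted p = 0.000143 and 2.82e-05). Lipa, the lysosomal acid lipase, was called on day 3 against both day 0 and day 1, at 1.10 ± 0.12 and 0.75 ± 0.12, and Dab2 rose by 1.09 ± 0.13 on day 3. Lpl, lipoprotein lipase, fell by 0.53 on day 1 (adjusted p = 0.00213). The 3 genes called lower on day 3 against day 0 were Fabp4, Lpl and Cd36, with Lpl at -0.37 (limma adjusted p = 0.0139). Cd9, Cd63, Gpnmb, Spp1 and Fabp5, also listed, were not among the genes called in any comparison. Of the 21 listed genes 19 were tested, and the untested ones are among those just named. For the untested ones the lack of a call is not a result.

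**Figure D5:**
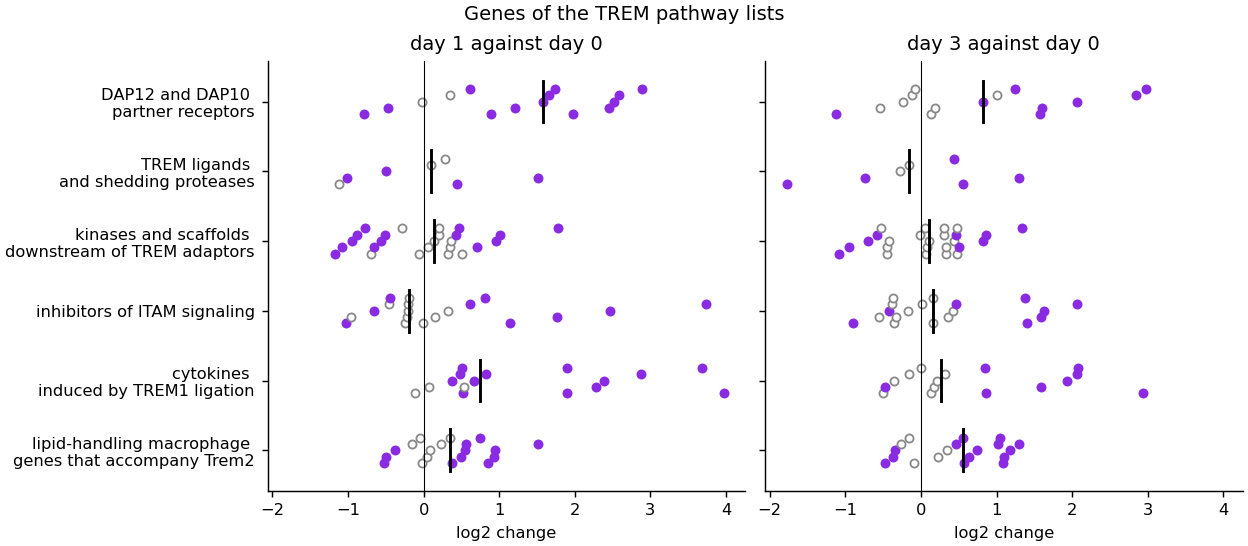
Log2 change of each tested gene (horizontal axis) in the 6 lists of the TREM pathway, for day 1 against day 0 (left) and day 3 against day 0 (right). Filled points passed an adjusted p under 0.05, open points did not, and the vertical bars are medians, such as 1.58 on day 1 for the partner receptors.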

How the data were processed

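Total RNA of SVFs from 9 mice was measured on Affymetrix Mouse430_2 arrays, 3 mice at each of days 0, 1 and 3, grouped by their labels. The authors summarised the probes with MAS5 (version not given in the sources used here) and deposited, per array, a linear signal intensity scaled to a target of 500, a detection p-value and a present, marginal or absent call. Of 45101 probe sets, 34945 had 1 gene symbol, 932 several and 9160 none.

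Signals were taken to log2. Each gene was read from its brightest probe set among those with 3 of 3 present calls on 1 day or more (11796 genes), and fitted with limma 3.58.1 in R 4.3.3 (lmFit, and eBayes with a variance trend), two-sided, with Benjamini-Hochberg adjustment over all genes. The scripts were tested on simulated data. The number of arrays limits the precision, and the intervals have 6 residual degrees of freedom before moderation. No array was left out, and no processing batch is named in the labels.

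The members and gene lists were chosen with earlier results of these data known. Named genes were all members, the 5 genes with the highest Pearson correlation to each member, and in each list up to 4 called genes with the largest change and up to 2 that were not called or went against the majority, from which the text draws. Alternatives covered scaling, offsets of 16 and 64, detection filters, the choice of probe set, the variance model, thresholds, the methods' analysis of variance with a 2-fold limit, a replicate block and leaving out each array. Reading Trem1 from its other probe set was chosen after seeing the data. Sequences came from RefSeq tables (GRCm38.p6), in which 4 of the 6 members were matched.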

Additional observations from a re-analysis of the deposited data

How the results depend on the processing

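The alternatives numbered 495, over the member changes and the counts of members called. Of these, 468 were the same: a change kept its direction and its side of the threshold, or a count stayed similar. In 18 the result was weaker, because a change lost its call or clearly fewer members were called. A call was gained in 3, and 6 changes turned sign. The calls of Trem1, Trem3 and Tyrobp on day 1 and of Trem1, Trem2 and Trem3 on day 3 against day 0 held in every alternative that gave a value. Requiring presence on all 9 arrays gave no value for Trem2 and Trem3, and leaving out probe sets with the suffixes _x, _s and _a gave none for Trem2.

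Genes called numbered 3378 on day 1 against day 0, 3074 on day 3 against day 0 and 1676 on day 3 against day 1. At an adjusted p under 0.01 they were 1410, 1554 and 629, with a 2-fold limit 826, 934 and 434, and by the methods' analysis of variance with that limit 752, 860 and 445. Array weights gave 2614 on day 3 against day 1. Leaving out 1 array gave 1877 to 4548, 1889 to 3618 and 749 to 2823, and the fewest came without replicate 3 of day 0, replicate 2 of day 3 and replicate 1 of day 3. Members called numbered 3 instead of 5 on day 3 against day 0 when presence on all 9 arrays, the 2-fold limit or the analysis of variance was applied, and numbered 1 instead of 3 on day 3 against day 1 with presence on all 9 arrays. Leaving out 1 array gave 3 to 5, 4 to 6 and 2 to 4 members.

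Hcst was not called at an adjusted p under 0.01, with the 2-fold limit or by the analysis of variance on day 1 (-0.86) and day 3 (-0.92) against day 0, and Tyrobp on day 3 (0.997) missed the 2-fold limit in both settings that use it. Trem1 on day 3 against day 1 (-1.19) was not called at 0.01. Without 1 array at a time, Hcst changed by -1.10 to -0.53 on day 1 and -0.97 to -0.86 on day 3, Trem2 by 0.12 to 0.93 on day 1, Syk by 0.20 to 0.66 on day 3, and on day 3 against day 1 Trem1 by -1.54 to -0.86, Tyrobp by -0.47 to -0.10, Hcst by -0.39 to 0.18 and Syk by -0.07 to 0.26. Uncalled changes on day 3 against day 1 turned sign for Hcst with array weights (0.047) and for Syk with median centring (-0.04) and the mean of its probe sets (-0.092). The Trem1 to Trem2 ratio on day 3 against day 0 was 0.73 with the mean of probe sets.

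Among list genes that were not called in the comparison, Cblb on day 3 against day 0 was 0.144 with the mean of probe sets and lay between -0.382 and 0.104 without 1 array at a time. Icam1 on day 1 was 0.009 with median centring. Cxcl1 on day 3 against day 0 was 0.152 with quantile normalization, 0.032 with the mean of probe sets, and between -0.055 and 0.032 without 1 array at a time. The cause was not tested for any of these changes.

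Scaling moved the balance of calls. On day 1 against day 0, 62.5% of called genes were lower, beside 53.6% after quantile normalization and 42.8% with median centring, and on day 3 against day 1 the shares were 32%, 42.6% and 56.6%. The median of all genes on day 1 was -0.13 and became -0.01 with centring. With the replicate number as a block, 3509, 3157 and 1746 genes were called and no member call changed. Same-numbered mice correlated at -0.15 to 0.33 in their deviations from the day means, so the numbers were not taken as pairs. Signals near background limit Trem2 on days 0 and 1 and Trem3 on day 0.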
